A study of Mus musculus with 8 samples.

Results

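The regions described here are 153 stretches of at least 50 kb in which the HA signal of tagged H3.3 was at least 2-fold lower in the H3.3K36M line than in the H3.3WT line, called K36M-low domains below. They were picked on the ratio itself. A 10 kb bin on chromosomes 1 to 19 and X was used if the mean of the 4 HA libraries was at least 0.5 RPM (reads scaled to the size of the library). It passed if its H3.3 ratio, the log2 of H3.3K36M over H3.3WT with 0.1 RPM added to both values, was -1 or lower, and 5 or more touching bins had to pass. The domains hold 1253 of the 245206 used bins, or 12.53 Mb of 2452.1 Mb. A bin at least 2-fold lower in H3.3K36M was not rare on its own, with 4434 such bins or 1.81% of those used, and the domains hold 0.511% of the used bins.

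Chromatin came from C3H10T1/2, a mesenchymal progenitor line from C3H mouse embryos, at passages 10 to 15. Each of 4 sublines stably expressed 1 histone with a FLAG-HA tag: wild-type H3.1 (H3.1WT), H3.1K36M, wild-type H3.3 (H3.3WT) or H3.3K36M. The cells keep their own histone genes, so the tagged histone adds to the untagged pool, and whether a subline is 1 clone or a pool is not given in the labels. Each subline gave 1 HA chromatin immunoprecipitation (ChIP) library, used here, and 1 input library, not used here.

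Nucleosomes carry either H3.1, which is placed mainly behind the replication fork, or H3.3, which is also placed outside replication, at active genes and enhancers by the HIRA chaperone and at repeats and telomeres by ATRX and DAXX. Lysine 36 of the H3 tail is methylated by NSD1, NSD2 and SETD2 in transcribed and intergenic chromatin. The K36M change puts a methionine there, which inhibits these enzymes and lowers K36 methylation on the other H3 molecules of the cell. HA ChIP reports where the tagged histone itself sits, not its methylation.

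In total the HA libraries held between 35487141 and 46749609 reads, and the median used bin held 129 reads in H3.1WT, 151 in H3.1K36M, 129 in H3.3WT and 116 in H3.3K36M. Since a line is represented by 1 library, differences have no replicate check and no test, and the 95% intervals below are exact and cover counting error only. An alternative scaling, with the median bin ratio of each library set equal, shifted the H3.3 log2 ratio by -0.12, and the lower bins went from 38.1% of all bins at least 2-fold apart to 61.4%. The input libraries carry the DNA content of each line and were not used, so DNA content, background reads and placement of the tagged histone cannot be told apart. No gene was placed on the domains, because the gene table at hand describes another genome build, and no sequence of the domains is shown for the same reason.

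In the H3.3WT line the domains were rich in tagged H3.3, and in the H3.3K36M line they held about the signal of an ordinary bin. The domains averaged a median of 6.85 RPM per 10 kb in H3.3WT (range 3.86 to 16.1), against a median of 2.77 RPM over all used bins. In H3.3K36M the same domains had a median of 2.72 RPM (1.60 to 6.33), against 3.004 RPM over all used bins. The median domain bin stood at percentile 84.2 of all used bins in H3.3WT and at percentile 38.6 in H3.3K36M. Of the domain bins, 71.7% lay at least 2-fold above the H3.3WT median, against 23.1% of all used bins, and 2.87% lay at least 2-fold above the H3.3K36M median, against 15.4% of all used bins. Since the ratio chose the members, these values describe them and support nothing further.

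**Figure D1:**
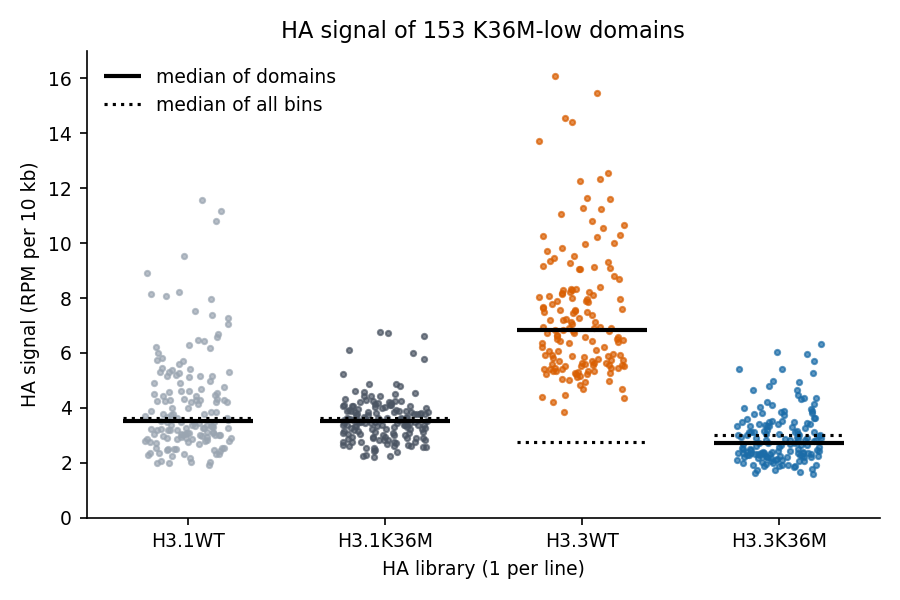
HA signal in RPM per 10 kb of the 153 K36M-low domains (1 point each) in the 4 HA libraries, with the median of the domains (solid line) and of all used bins (dotted line). The domains stand at a median of 6.85 RPM in H3.3WT against 2.72 in H3.3K36M, while in both H3.1 libraries their median lies near that of all bins.

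The median domain was 2.48-fold lower in H3.3K36M, with a range over domains of 2.08-fold to 3.35-fold. On the log2 scale the median was -1.31, and counting error gave a typical half-width of 0.12 around the value of 1 domain. When a random 50% of the H3.3 reads chose the domains and the remaining reads gave the values, 139 domains were found with a median of -1.26. The order of the domains by H3.3 signal was much the same in both H3.3 lines, with Pearson's r of 0.952 and Spearman's rho of 0.937 across the 153 domains; the narrow range of ratios that the choice imposes by itself gives a high r. The bin closest to the limit had a log2 ratio of -1.00005, and 231 of the 1253 (18.4%) lay within 0.1 of it. Just outside, 68 runs of 4 passing bins, 164 of 3, 400 of 2 and 1617 single bins were not kept.

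Most domains were short. The median length was 60 kb, 42 domains had the minimum of 50 kb, 36 had 100 kb or more and 5 had 200 kb or more. Longer domains had a lower H3.3K36M signal relative to H3.3WT. The median was 2.36-fold lower in the 42 domains of 50 kb, 2.44-fold in the 75 of 60 to 90 kb, 2.54-fold in the 19 of 100 to 140 kb and 2.66-fold in the 17 of 150 to 300 kb. Their H3.3WT levels were close, from 6.45 to 6.92 RPM between these classes, and the H3.3K36M levels went from 2.94 RPM in the shortest class to 2.56 RPM in the longest. A run that has to pass at every bin is more easily long where the ratio is far from the limit, so length and ratio are not independent under this choice.

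The longest domain was chr9:31780001-32080000, 300 kb on build mm9. It averaged 3.48 RPM in H3.1WT, 3.39 in H3.1K36M, 5.58 in H3.3WT and 1.89 in H3.3K36M, which is 2.95-fold lower in H3.3K36M than in H3.3WT (95% interval 2.81 to 3.1). Over its 30 bins H3.3WT ranged from 3.14 to 8.66 RPM and H3.3K36M from 1.27 to 2.41 RPM. Each bin had to be at least 2-fold lower in H3.3K36M, which by itself tends to keep these ranges apart. On the same chromosome, chr9:32850001-33080000 (230 kb) held 6.08 RPM in H3.3WT against 1.88 in H3.3K36M, 3.23-fold lower (3.06 to 3.41). Its H3.1 signal was 4.27 RPM in H3.1WT against 3.22 in H3.1K36M. In both of these domains H3.3K36M was the lowest of the 4 libraries and H3.3WT the highest.

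The lowest ratio was found on chromosome 15. At chr15:40470001-40710000 (240 kb), the signal was 10.2 RPM in H3.3WT against 3.05 in H3.3K36M, 3.35-fold lower (3.21 to 3.49), with 2.81 RPM in H3.1WT against 3.26 in H3.1K36M. The next domain begins 10 kb further on, chr15:40720001-40780000, with 8.31 and 2.84 RPM in the H3.3 lines, 2.93-fold lower (2.69 to 3.20). After another 10 kb follows chr15:40790001-40950000, with 9.53 and 2.92 RPM, 3.26-fold lower (3.09 to 3.43). Over the whole 480 kb, 46 of 48 used bins passed, and both of the others had ratios below 0, the higher at -0.76. Averaged over the stretch, the signal was 9.64 RPM in H3.3WT, 3.03 in H3.3K36M, 2.86 in H3.1WT and 3.29 in H3.1K36M, so only H3.3WT stood apart.

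**Figure D2:**
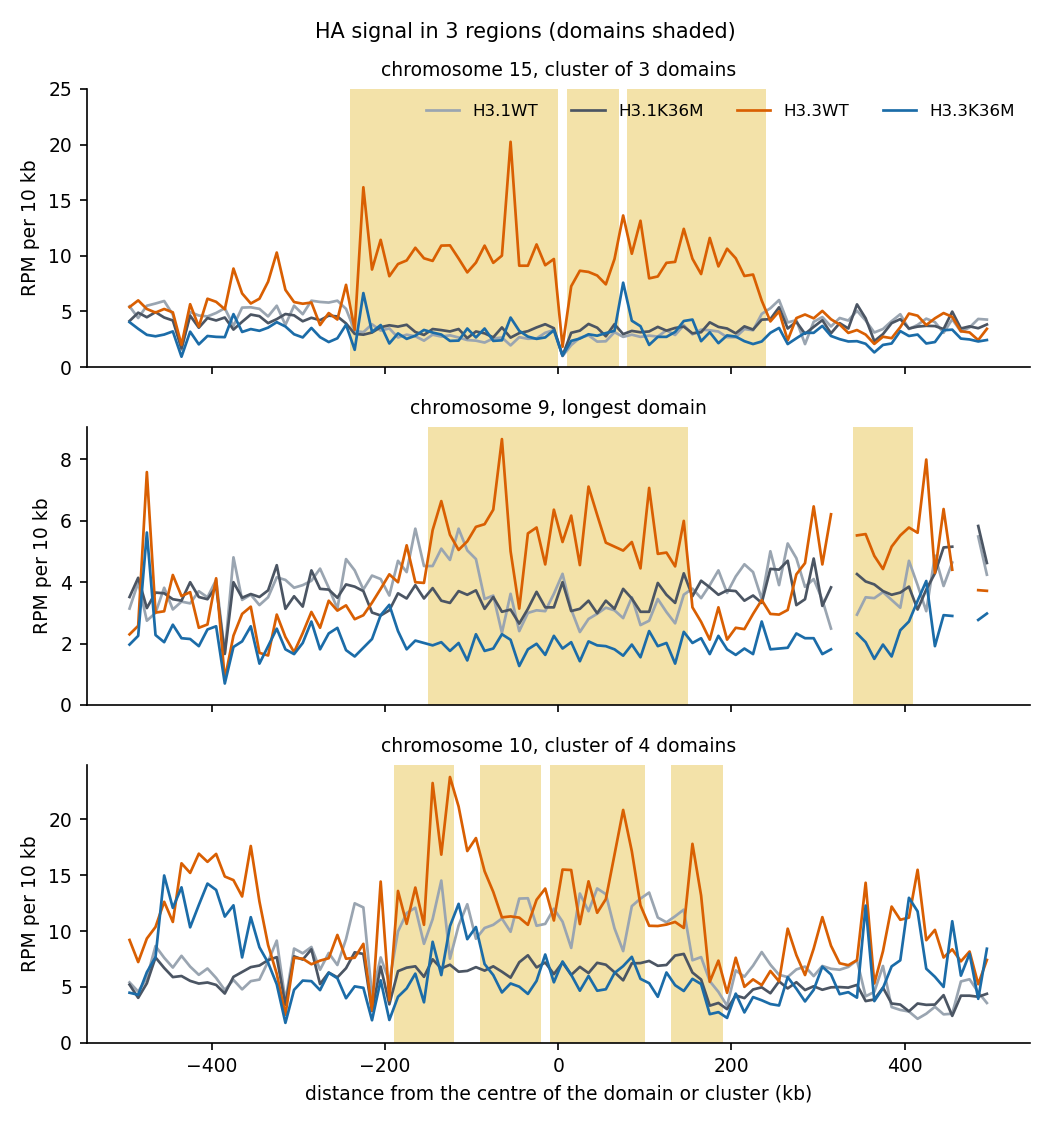
HA signal (RPM per 10 kb bin) of the 4 libraries by distance in kb from the centre of 3 regions, with K36M-low domains shaded and gaps where no 10 kb bin was used. On chromosomes 15 and 9 the H3.3WT signal averaged over the domains is the highest of the libraries, and on chromosome 10 H3.1WT is high as well, with 10.7 RPM over the cluster against 6.57 RPM in H3.1K36M.

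Other domains with low ratios lay on chromosomes 3, 8, 9, 11 and 15. At chr15:56240001-56290000 the signal was 8.80 RPM in H3.3WT against 2.71 in H3.3K36M, 3.24-fold lower (2.94 to 3.57). At chr3:141230001-141330000 it was 5.65 and 1.75 RPM, 3.22-fold lower (2.96 to 3.51), in a stretch where H3.1WT held only 1.93 RPM. At chr11:67310001-67360000 it was 6.81 and 2.23 RPM, 3.06-fold lower (2.75 to 3.41). The domain chr9:116900001-117050000 had 5.78 and 1.92 RPM, 3.01-fold lower (2.82 to 3.22), and the 110 kb domain chr8:46810001-46920000 had 15.5 and 5.40 RPM, 2.87-fold lower (2.74 to 3.004). Their H3.3WT levels ranged from 5.65 to 15.5 RPM, while their ratios are alike because the domains were picked for low ratios.

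The remaining long domains had ratios nearer the median. They include chr15:54240001-54520000 (280 kb) with 9.13 RPM in H3.3WT against 3.44 in H3.3K36M, and chr6:101110001-101320000 (210 kb) with 6.20 and 2.49 RPM. At chr3:113740001-113930000 (190 kb) the values were 7.68 and 2.71 RPM. At chr2:137410001-137580000 (170 kb) they were 10.6 and 4.13 RPM, and at chr17:86860001-87030000 (170 kb) 6.22 and 2.24 RPM. Of 4 domains of 160 kb, the first 2 in genome order complete the 10 longest. They are chr7:122610001-122770000, with 5.61 and 2.14 RPM, and chr14:12560001-12720000, with 5.03 and 1.98 RPM. The others are chr15:40790001-40950000 and chr16:57880001-58040000, the latter with 7.22 and 2.72 RPM.

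The edges of the domains were gradual in H3.3WT, and the H3.3K36M line showed almost no step there. Taking all edges together, the median H3.3WT signal was 4.30 RPM in bins centred 195 kb outside, 4.75 RPM at 95 kb outside, 5.45 RPM at 45 kb outside and 6.58 RPM in the first bin inside. At the same distances H3.3K36M had medians of 2.72, 2.69, 2.76 and 2.69 RPM. The bin next to a domain was an exception, with 3.21 RPM in H3.3K36M, but that bin is by construction one that failed the ratio. Of the 306 edges, 281 ended at a bin above the limit, with a median log2 ratio of -0.84 there, and 105 of these lay within 0.1 of the limit. The other 25 ended at a row wider than 10 kb, which was not used. A domain edge is therefore often a matter of the limit and not of a drop in signal.

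**Figure D3:**
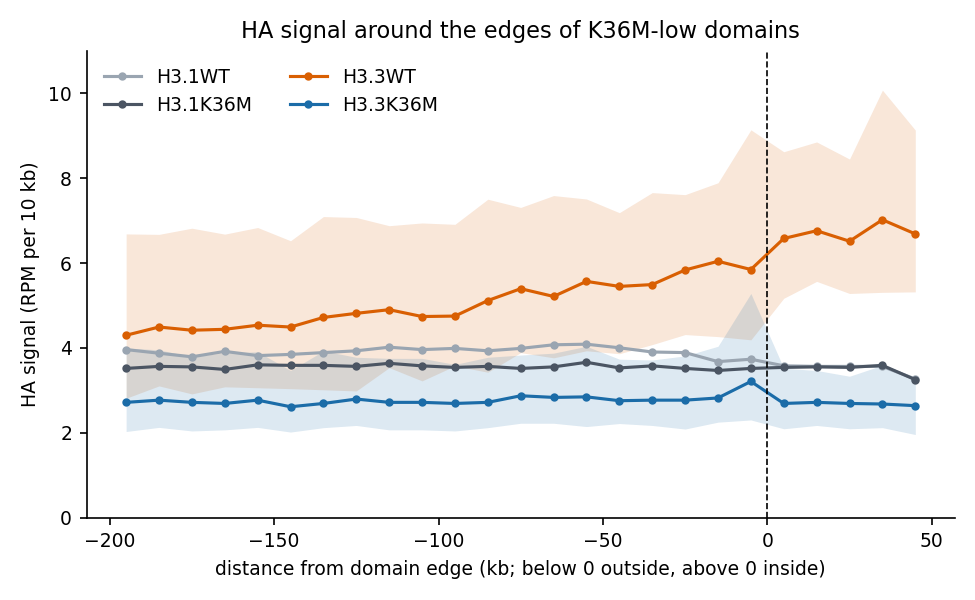
Median HA signal (RPM per 10 kb) of the 4 libraries by distance from the edges of K36M-low domains, from 200 kb outside (below 0) to 50 kb inside (above 0), with the quartile range shaded for the H3.3 libraries. H3.3WT climbs from 4.30 RPM to 6.58 RPM in the first bin inside, while H3.3K36M stays between 2.62 and 3.21 RPM.

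Compared with the 100 kb on either side, with bins of other domains left out, the H3.3WT signal inside was higher in 124 of the 153 domains, by a median of 1.17 times (range 0.697 to 2.11). The H3.3K36M signal inside was lower than the flanks in 112 domains, at a median of 0.902 times (0.493 to 1.38). In 83 domains H3.3WT was above its flanks and H3.3K36M below, in 41 both were above, and in 29 both were below. Every bin inside passed the ratio, while flanks hold no domain bins and mostly begin at a bin that failed it. The choice by itself thus favours higher H3.3WT and lower H3.3K36M inside, so these counts describe the domains only. H3.1WT was at 0.955 times its flanks and H3.1K36M at 1.01 times in the median domain. Domains that stood well above their flanks in H3.3WT alone included chr15:40790001-40950000, at 2.01 times its flanks in H3.3WT but 0.939 times in H3.3K36M, and chr3:113740001-113930000, at 1.79 and 0.931 times. At chr3:141230001-141330000 it was the H3.3K36M signal that differed from its surroundings, at 0.493 times its flanks against 0.870 times in H3.3WT.

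The lower ratio reached far beyond the domains. Flanks of 100 kb had a ratio below 0 in all 153 domains, with a median log2 ratio of -0.87. Bins between 100 and 200 kb from the nearest domain had a median of -0.57, those between 200 and 500 kb -0.30, and those between 500 and 1000 kb -0.029. From 2 to 5 Mb away the median was 0.09, near that of all used bins at 0.10. The share of bins at least 2-fold lower went from 28.5% within 100 kb to 15.01%, 7.16% and 2.41% over the next 3 distances, and was 0.785% beyond 5 Mb. Over the same distances the median H3.3WT signal went from 5.40 RPM within 100 kb to 2.62 RPM beyond 5 Mb, while H3.3K36M stayed between 2.72 and 3.004 RPM. The domains are thus the lowest portions of wider zones of lower ratio.

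Many domains lay near another. With domains less than 500 kb apart joined, the 153 formed 82 groups, of which 43 held 2 or more domains, and 114 domains (74.5%) had such a neighbour. No share for comparable regions was computed. Of the 136 gaps between consecutive domains on a chromosome, 22 were a single 10 kb wide, where 1 bin above the limit parts a run, and 41 were under 50 kb. The group with the most domain length was chr15:53440001-54520000, where 5 domains made up 610 kb of 1080 kb, with 7.59 RPM in H3.3WT against 3.45 in H3.3K36M over all its used bins. All 47 of the bins between its domains had ratios below 0, with a median of -0.71. In chr7:122190001-122870000, 6 domains made up 570 kb of 680 kb (83.8%), with 5.46 RPM in H3.3WT, 2.14 in H3.3K36M, 2.79 in H3.1WT and 2.76 in H3.1K36M. The third group by domain length was the 480 kb on chromosome 15 described above.

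Chromosome 15 held the most domains, 24 of the 153, followed by chromosome 4 with 16, chromosome 11 with 12 and chromosomes 2 and 17 with 11 each. By share of used bins in domains, chromosome 15 was first with 2.15% and chromosome 17 second with 1.01%. Chromosomes 13, 18 and 19 held none, and chromosome X held 3, all within 260 kb near its end. Bins at least 2-fold lower also made up a smaller share of these chromosomes than the 1.81% of all used bins. They were 48 on chromosome 13 (0.428% of its used bins), 17 on chromosome 18 (0.200%) and 49 on chromosome 19 (0.866%). Chromosome X had 48 (0.323%), against 568 on chromosome 15 (5.78%). The median log2 ratio of all used bins also differed between chromosomes, but did not follow the domains throughout. It was -0.20 on chromosome 15, and chromosomes 13 and 18 had medians of 0.29 and 0.36. Chromosome 17, with 11 domains, had 0.18 and chromosome 6, with 5 domains, had 0.24, both above the 0.15 of chromosome 19, which held none. After the median of each chromosome was subtracted, chromosome 15 held 13 of 215 domains and 1.02% of its bins were in them, and chromosome 13 held 7, chromosome 18 held 1 and chromosome 19 held 2. Domains were not gathered at chromosome ends, where 5.88% of them and 7.72% of used bins lay within 5 Mb of the first or last used position.

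**Figure D4:**
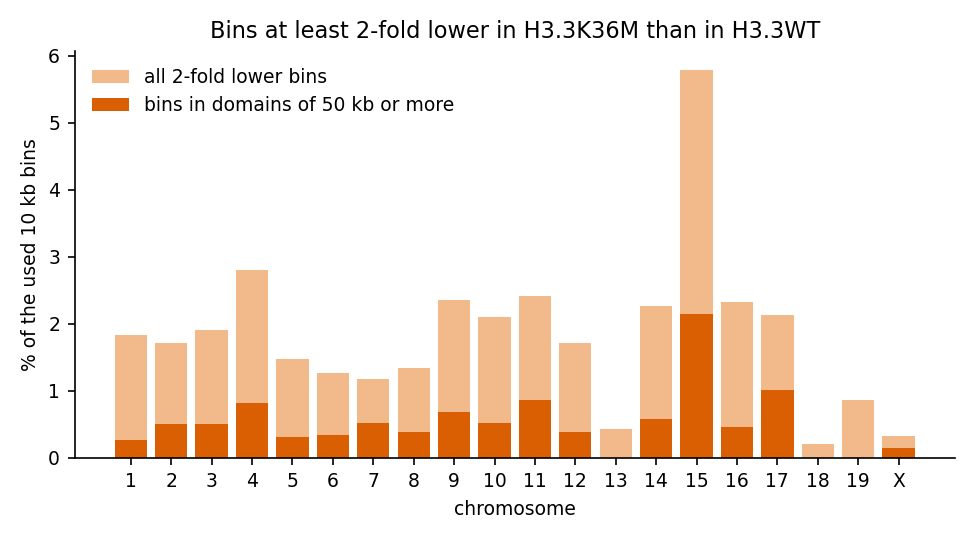
Share of the used 10 kb bins of each chromosome that were at least 2-fold lower in H3.3K36M than in H3.3WT (light bars) and that lay in K36M-low domains (dark bars, drawn over the light ones). Chromosome 15 stands highest, with 5.78% of its bins lower and 2.15% in domains, and chromosomes 13, 18 and 19 hold no domain.

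Against tagged H3.1 of the same state, the domains had more H3.3 in the WT state and slightly less in the K36M state. These ratios share a library with the one that chose the domains. H3.3WT was above H3.1WT in 152 of 153 domains, with a median log2 ratio of 0.87 (range -0.25 to 2.29), and at least 2-fold above in 55. In H3.3K36M and H3.1K36M the median was -0.30 (-1.44 to 0.53), with H3.3K36M the lower in 131 domains and at least 2-fold higher in none. In 38.8% of the domain bins H3.3WT was at least 2 times H3.1WT, against 10.3% of all used bins. The corresponding share in the K36M lines was 0.479% against 8.18%, and 4.87% were at least 2-fold lower in H3.3K36M than in H3.1K36M, against 3.29%. Bin by bin on the log2 scale, H3.3 relative to H3.1 in the K36M lines stood at -0.36 in the median domain bin. In the median of all used bins it stood at -0.30, so domain bins lay slightly below the genome level. The domain value of -0.30 given above is taken over whole domains and is not directly comparable with bins. With the libraries scaled as above, the domain median was -0.033. The 1 domain with H3.3WT below H3.1WT was chr14:117840001-117890000, with 5.16 RPM in H3.1WT, 5.22 in H3.1K36M, 4.35 in H3.3WT and 1.93 in H3.3K36M.

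The authors' deposited peak lists rarely touched the domains. H3.3K36M peaks, called in a library of the ratio, were found in 11 of the 1253 domain bins (0.878%, exact interval 0.439% to 1.57%), against 4.25% of all used bins. They fell in 8 domains, of which 6 lay on chromosome 15. One was chr10:83440001-83550000, with 3 peak bins, 14.4 RPM in H3.3WT against 5.95 in H3.3K36M. From the median domain the nearest H3.3K36M peak was 161.6 kb away, and 92 domains had none within 100 kb. Without chromosome 15 the share of domain bins with a peak was 0.384%. None of the domain bins touched an H3.1K36M peak, which allows a share of up to 0.294% (exact interval), in a list that touches only 83 used bins in all.

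The H3.1 libraries did not enter the ratio that chose the domains, apart from the low-signal filter. In the median domain they were alike, with 3.521 RPM in H3.1WT against 3.520 in H3.1K36M and a median log2 ratio of -0.05, close to the -0.001 of all used bins. The spread between domains was wide. The SD of the log2 ratio of H3.1K36M over H3.1WT was 0.36 over the 153 domains and 0.17 over 45801 windows of 50 kb across the genome, while counting error gave a typical half-width of 0.13 for a domain. H3.1K36M was at least 20% lower in 45 domains (29.4%), against 2.88% of the windows, and at least 25% higher in 6 (3.92%), against 2.62%. Among bins, 13.2% of those in domains were at least 1.5-fold lower in H3.1K36M, against 1.02% of all used bins, and 1.84% were at least 1.5-fold higher, against 0.74%. At 2-fold, 24 domain bins were lower, out of 157 in the genome (0.064% of used bins).

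The 45 domains with lower H3.1K36M had a higher H3.1WT signal than the others. Their medians were 5.73 RPM in H3.1WT, 3.94 in H3.1K36M, 9.08 in H3.3WT and 3.74 in H3.3K36M, so both WT libraries were high and both K36M libraries near the ordinary level of bins. In the 102 domains between these limits the medians were 3.21, 3.38, 6.15 and 2.41 RPM in the same order. H3.1WT was at least 1.5-fold above its median of 3.65 RPM in 25 domains, or 16.3%, against 6.88% of the windows, and in all 25 H3.1K36M was at least 20% lower, with a median log2 ratio of -0.73. A high H3.1WT signal by itself lowers this ratio, since H3.1WT is its denominator. Over windows chosen for H3.1WT in the same way, 16.1% were at least 20% lower and the median was -0.07. Windows with H3.3WT at least 2-fold above its median were 23.6% of all windows. Among the 10560 of them that touch no domain, 6.91% were at least 20% lower in H3.1K36M. Of the 45 domains, 13 lay on chromosome 15, and without that chromosome 24.8% of the domains were at least 20% lower in H3.1K36M.

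**Figure D5:**
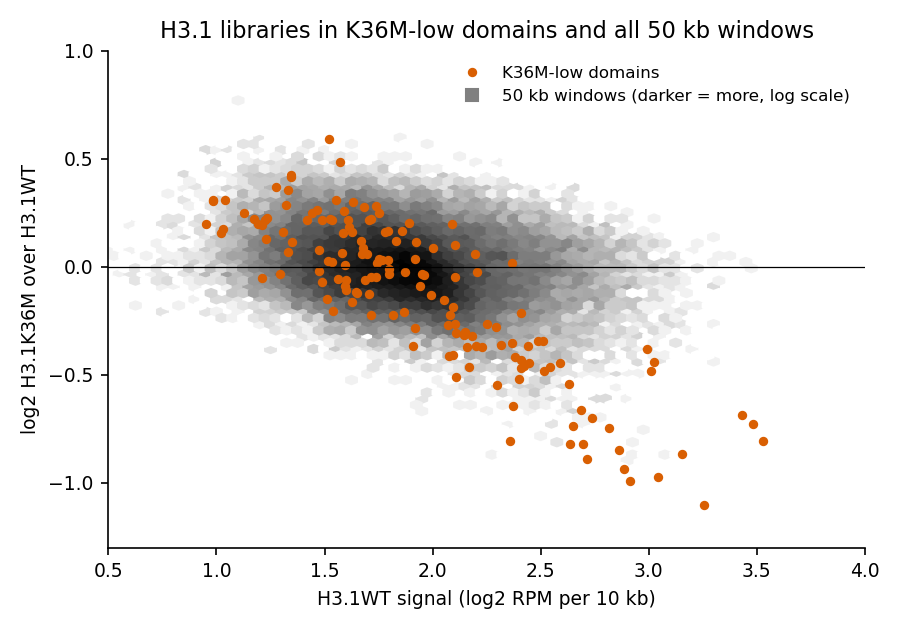
Log2 ratio of H3.1K36M over H3.1WT against the H3.1WT signal (log2 RPM per 10 kb) for the 153 K36M-low domains (points) and the 50 kb windows of the genome within the axes (grey, log colour scale); H3.1WT is in both axes. The domains range from -1.10 to 0.59, and the 25 with H3.1WT at least 1.5-fold above its median have a median of -0.73.

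In the 5 domains with the lowest H3.1 ratio both WT libraries were high, while the K36M libraries held 3.54 to 4.67 RPM. At chr15:43460001-43510000 the signal was 9.54 RPM in H3.1WT against 4.44 in H3.1K36M, 2.15-fold lower (1.98 to 2.33), beside 11.3 RPM in H3.3WT against 4.35 in H3.3K36M. The neighbouring chr15:43530001-43620000 held 7.54 and 3.79 RPM in the H3.1 lines, 1.99-fold lower (1.86 to 2.13), and 11.1 and 4.22 RPM in the H3.3 lines. Near the end of chromosome X, chrX:166040001-166100000 had 8.23 RPM in H3.1WT, 4.19 in H3.1K36M, 8.69 in H3.3WT and 3.90 in H3.3K36M. In the same order the values were 7.39, 3.86, 11.6 and 4.67 RPM at chr4:80620001-80700000, and 6.57, 3.55, 8.32 and 3.54 RPM at chr8:38040001-38140000. In each of these 5 both WT libraries stood above both K36M libraries. Within each variant this direction is fixed by the choice, first on the H3.3 ratio and then on the lowest H3.1 ratio.

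The cluster chr10:83260001-83640000 had the highest H3.1 signal of any group named here, with 10.7 RPM in H3.1WT, 6.57 in H3.1K36M, 13.8 in H3.3WT and 6.04 in H3.3K36M over its 38 used bins. Within it, chr10:83260001-83330000 had the highest H3.3WT level of all domains, 16.1 RPM against 6.33 RPM in H3.3K36M, with H3.1K36M 1.61-fold lower than H3.1WT (1.52 to 1.71). The lower H3.1 ratio also extended past the domains. Around the 45 domains the median log2 ratio of H3.1K36M over H3.1WT was -0.55 inside, -0.45 in bins within 100 kb, -0.27 from 100 to 200 kb, -0.12 from 200 to 500 kb and -0.029 from 500 to 1000 kb. Around the other 108 it was 0.07 inside and between -0.10 and -0.005 at these distances. The H3.3 log2 ratio around the 45 domains went from -1.27 inside to -0.62 at 100 to 200 kb and -0.10 at 500 to 1000 kb. The 45 were picked for a low ratio in both variants, which fixes the direction of the values inside. Some return toward the genome level outside follows from that choice, and whether the 2 variants share it was not tested.

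In 66 of the 153 domains H3.1K36M was above H3.1WT, and in the other 87 it was below. Among bins, 57.5% of those in domains had an H3.1 log2 ratio below 0, against 50.2% of all used bins. The largest difference among the 66 was at chr10:58380001-58440000, with 2.87 RPM in H3.1WT against 4.33 in H3.1K36M, 1.51-fold higher (1.36 to 1.67). There H3.3WT held 7.98 RPM against 3.14 in H3.3K36M. At chr15:42890001-42960000 the H3.1 values were 2.98 and 4.16 RPM, and H3.3WT, at 14.5 RPM, was 4.89 times H3.1WT. At chr9:116900001-117050000 they were 2.54 and 3.39 RPM, 1.34-fold higher. Across domains the 2 ratios had little relation, with r of -0.163 and rho of -0.134 between the log2 ratios of H3.1 and of H3.3; the range of the H3.3 ratio is cut by the choice of domains. Domains with lower, similar and higher H3.1K36M had nearly the same median H3.3 log2 ratio, -1.28, -1.31 and -1.31. All domains had to pass the same H3.3 limit, and their H3.3 log2 ratios ran only from -1.74 to -1.06. The choice by itself thus keeps these medians close, and the class with higher H3.1K36M held only 6 domains.

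Levels of the 2 variants varied together across domains within a state. Between H3.1WT and H3.3WT, r of log2 RPM was 0.68 (rho 0.648) over the 153 domains and 0.53 (rho 0.503) over the 50 kb windows. Between H3.1K36M and H3.3K36M it was 0.676 (rho 0.648) and 0.564 (rho 0.544). Points share the mappable length of each region, and no p is given. The 5 domains with the highest H3.3WT signal, at 13.7 to 16.1 RPM, lay on chromosomes 8, 10, 15 and X. The 5 lowest, at 3.86 to 4.46 RPM, lay on chromosomes 3, 5, 11 and 14, and all but the one on chromosome 14 had an H3.1WT signal of 1.98 to 2.25 RPM. The lowest was chr11:63770001-63850000, with 2.25 RPM in H3.1WT, 2.63 in H3.1K36M, 3.86 in H3.3WT and 1.63 in H3.3K36M.

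Bins that passed the same ratio but in runs shorter than 50 kb had median levels near those of the domain bins. The shared limit by itself keeps their H3.3 ratios alike. These 3181 bins had medians of 6.08 RPM in H3.3WT, 2.62 in H3.3K36M, 3.59 in H3.1WT and 3.54 in H3.1K36M. Fewer of them were at least 1.5-fold lower in H3.1K36M, 5.56% against 13.2% of domain bins. An H3.3K36M peak was found in 10 of them (0.314%, exact interval 0.151% to 0.577%). In domain bins it was found in 11 (0.878%, 0.439% to 1.57%), so the intervals overlap. Without chromosome 15 the share of domain bins was 0.384%. Bins rich in H3.3WT that did not pass (53778 bins) had 6.84 RPM in H3.3K36M at 7.55 RPM in H3.3WT, and a peak was found in 16.9% of them. Their H3.1WT median of 4.13 RPM was above the 3.51 RPM of the domain bins. The opposite limit, at least 2-fold higher in H3.3K36M, was met by 2.94% of used bins in runs of any length and gave 82 domains of 5880 kb in all, with 1.46 RPM in H3.3WT against 4.01 in H3.3K36M in the median bin. The closest of them lay 880 kb from a K36M-low domain, and the median distance was 19470 kb for the 126 domains with one on their chromosome. None of these differences between sets of bins has a test.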

How the data were processed

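The 8 samples are 4 HA libraries and 4 input libraries. Grouping used the labelled genotype, although both H3.3 HA titles start with an H3.1 name. The antibody is HA per the descriptions, while the protocol text names Cbx2. RPM per genomic row and peak positions without scores are the values that the authors deposited. Bowtie 1.0.0 and build mm9 are named per the submitters' processing notes. Not given in the sources used here are the counting, extension and filtering of reads and the calling of peaks. Dividing the RPM of a library by its smallest value above 0 gave whole reads for 100% of values, within 0.01 of a read.

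Of the rows on chromosomes 1 to 19 and X, 247593 were 10 kb wide and 4029 wider. The wider rows, and 2387 rows under the mean of 0.5 RPM, were left out. The ratio of a domain is that of its summed RPM with no pseudocount, with exact (Clopper-Pearson) 95% intervals on recovered reads, which are not independent molecules. No test was run. The domain finder was tested on simulated data.

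Named domains are the 10 longest (ties in genome order), the 10 lowest in H3.3K36M over H3.3WT, the 5 lowest and 5 highest in H3.1K36M over H3.1WT, the 5 highest and 5 lowest in H3.3WT, the 3 groups with the most domain length, and the chromosomes with the highest and lowest share. The chromosome 10 cluster, the other chromosomes, the domain on chromosome 16, the domains with a peak and the domain with H3.3WT below H3.1WT were chosen after their values were seen. Members and limits were chosen with earlier results of these data known. Positions are 1-based. Scripts ran under Python 3.11.15 with scipy 1.17.1, numpy 2.4.6, matplotlib 3.10.9 and pandas 2.3.3.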

Additional observations from a re-analysis of the deposited data

Results flagged for a closer look

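In 18 of the 33 domains named by the rule, H3.3K36M was lower than H3.3WT while H3.1K36M was higher than H3.1WT. The 33 include the 5 domains picked for the highest H3.1 ratio and the 5 picked for the lowest. Over all 153 domains, H3.1K36M was the higher in 66. The counting interval of the H3.1 ratio lay above 1 in 43 of the 153 and below 1 in 63. Of all used bins, 50.2% had an H3.1 log2 ratio below 0, so H3.1K36M above H3.1WT is not particular to the domains. H3.1K36M was 1.51-fold higher at chr10:58380001-58440000, 1.40-fold at chr15:42890001-42960000, 1.34-fold at both chr15:40720001-40780000 and chr9:116900001-117050000, and 1.29-fold at chr12:100560001-100610000, the 5 domains with the highest H3.1 ratio. It was 1.24-fold higher at chr5:103080001-103160000, 1.23-fold at chr3:141400001-141460000, 1.17-fold at chr11:63770001-63850000, and 1.16-fold at both chr14:12560001-12720000 and chr15:40470001-40710000. The values were 1.15 at chr3:141230001-141330000, 1.12 at chr6:101110001-101320000 and 1.09 at chr15:40790001-40950000. In these 13 domains the counting interval of the H3.1 ratio lay above 1. It held 1 in the other 5, with 1.11 at chr5:103010001-103070000, 1.06 at chr15:56240001-56290000, 1.05 at chr7:122610001-122770000, 1.04 at chr8:46810001-46920000 and 1.01 at chr14:117840001-117890000. The difference between the variants was not tested, and the direction in H3.3 is fixed by how the domains were chosen.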

How the results depend on the processing

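No paired analysis was possible because each line has 1 HA library. Under 12 other settings the domains were chosen anew, which fixes the sign of the H3.3 ratio. The same holds for 2 more (each chromosome centred on its median, and chromosome 15 left out), added after seeing the data. Single domains were recomputed only under scaling and, for H3.3, with divided reads, and kept their signs. For H3.3 this is no check, since the divided reads had helped to choose these domains. Scaling shifted the H3.3 log2 ratio by only -0.12, while no domain lay above -1.06. The number and length of domains depended on the limits: 42 domains (3310 kb) with a pseudocount of 1 RPM, 279 (23940 kb) with libraries scaled on their median bin ratio, 395 (34890 kb) at a log2 limit of -0.8, 48 (3700 kb) at -1.2, 385 (20170 kb) with runs of 3, 36 (5370 kb) with runs of 10, and 7750 kb with only bins at or above the median signal. In the median domain the H3.3 log2 ratio (K36M over WT) was -1.47 with a pseudocount of 1 RPM, -1.13 at -0.8 and -1.51 at -1.2. For H3.1K36M over H3.1WT it was -0.19 with 1 RPM and -0.23 with the median filter. For H3.3WT over H3.1WT it was 1.17 after scaling, 0.69 at -0.8, 1.07 at -1.2 and 1.06 with runs of 10, and for H3.3K36M over H3.1K36M -0.033 after scaling. The share of domains at least 20% lower in H3.1K36M was 40.5% with 1 RPM, 40.2% with the median filter, 21.9% after scaling and 21.01% at -0.8. The share of domain bins with an H3.3K36M peak was 2.11% with 1 RPM and 0.384% without chromosome 15. Domains with a neighbour within 500 kb were 52.4% with 1 RPM, 41.7% at -1.2, 82.3% with runs of 3, 27.8% with runs of 10 and 64.7% with divided reads. Fewer or more domains pass by construction under other limits, and otherwise the cause was not tested. The median domain bin held 102 reads in H3.3K36M, and 103 of the 153 domains shared a bin with those chosen on 50% of the reads. How far read depth accounts for this overlap was not tested.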
